A study of Homo sapiens with 4 samples.

Results

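The TRIM genes are a family of ubiquitin ligases and related regulators, and their messenger RNA was followed here in FaDu cells given a DNA methylation inhibitor and a histone deacetylase inhibitor. The family was taken by name, as every symbol of the deposited expression table that begins with TRIM and a digit, antisense genes left out. This gave 75 of 25548 gene symbols, among them the readthrough genes TRIM6-TRIM34 and TRIM39-RPP21 and the pseudogenes TRIM53P, TRIM77P and TRIM78P. FaDu is an established line from a squamous carcinoma of the hypopharynx. The Aza/TSA group had 5 µM 5-aza-2'-deoxycytidine (Aza, which depletes DNA methyltransferase activity) on days 1 to 3 and 100 nM trichostatin A (TSA, which blocks histone deacetylases) on day 3. The DMSO group had the vehicles, of which the sample name lists DMSO and the treatment protocol also lists ethanol. Each group was 1 library of polyadenylated RNA, so the differences have no replicate check and no p-value. Because bulk RNA was measured, fewer cells that express a gene and less of its RNA per cell cannot be told apart.

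TRIM proteins share a tripartite motif of a RING finger, which binds the E2 enzyme that carries ubiquitin, 1 or more zinc-binding B-boxes, and a coiled coil through which they pair. The part after the coiled coil differs between members and chooses the target: a PRY-SPRY domain in most, a PHD finger and bromodomain in the chromatin regulators, NHL repeats, a COS box that binds microtubules, or others. Many members are best known from innate immunity, where they modify sensors of viral RNA and DNA or bind viral capsids, and several are themselves induced by interferon. TRIM28 holds silencing complexes at retroelements and imprinted genes, and TRIM29 is a marker of basal squamous epithelium.

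The FaDu columns summed to 516692 FPKM in the Aza/TSA library and 491963 FPKM in the DMSO library (fragments per kilobase of gene, scaled to library size). The read depth behind them is unknown. The labelled squamous type was checked on 9 markers, each at more than 1 FPKM in both libraries. By the calling rule given below, 3 of the 9 were lower (33.3%, against 5.21% of all measured genes), which held after the GC correction described below. Called higher was 1 (11.1%, against 16.1% of all measured genes), which did not hold after that correction. KRT5 was at 226 FPKM in Aza/TSA and 687 FPKM in DMSO, TP63 at 23.2 FPKM in Aza/TSA and 73.7 FPKM in DMSO, and DSG3 at 3.16 FPKM in Aza/TSA and 22.1 FPKM in DMSO. KRT14 was higher, at 147 FPKM in Aza/TSA and 49.8 FPKM in DMSO. The leukocyte gene PTPRC was at 0.0385 FPKM in Aza/TSA and 0.0513 FPKM in DMSO, and the endothelial gene PECAM1 at 0.0140 FPKM in Aza/TSA and at 0 in DMSO. Of 11 markers of leukocytes, endothelium and fibroblasts, 3 were called higher by that rule, CD14, CDH5 and COL1A1, and none after GC correction. These were the only measured marker of each type. Of all measured genes 16.1% were called higher, or 7.44% after GC correction. The 11 summed to 12.3 FPKM in Aza/TSA and 3.41 FPKM in DMSO, the highest being CD14 at 4.59 FPKM in Aza/TSA and 1.62 FPKM in DMSO, and 5 of them were listed at 0 in DMSO. Their part in the results below was not tested. The deposited columns of the second line, UMSCC47, do not follow their gene names (GAPDH is listed there at 0.177 FPKM in Aza/TSA and 0.290 FPKM in DMSO), and they were not used.

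The TRIM family as a whole differed between the libraries about as often as other genes did. A gene was counted as measured when the Aza/TSA or the DMSO library had at least 1 FPKM, and its change is log2((Aza/TSA FPKM + 1)/(DMSO FPKM + 1)), a scale on which the change of low genes is understated. Of the 75 members 43 were measured (57.3%, against 53.1% of all symbols). The limit for calling a gene higher or lower was 2-fold on that scale. Of the 43, 6 were called higher (14.0%), where 16.1% of all 13558 measured genes were, and 1 was called lower (2.33%), where 5.21% of all were. The median log2 change was 0.19 over the measured members and 0.13 over all measured genes, or 0.12 and 0.02 after GC correction. Over all 75 members, measured or not, it was 0.13, and over all 25548 symbols 0.00. The 6 called higher were TRIM6-TRIM34, TRIM8, TRIM47, TRIM56, TRIM11 and TRIM55, and the 1 called lower was TRIM34.

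**Figure D1:**
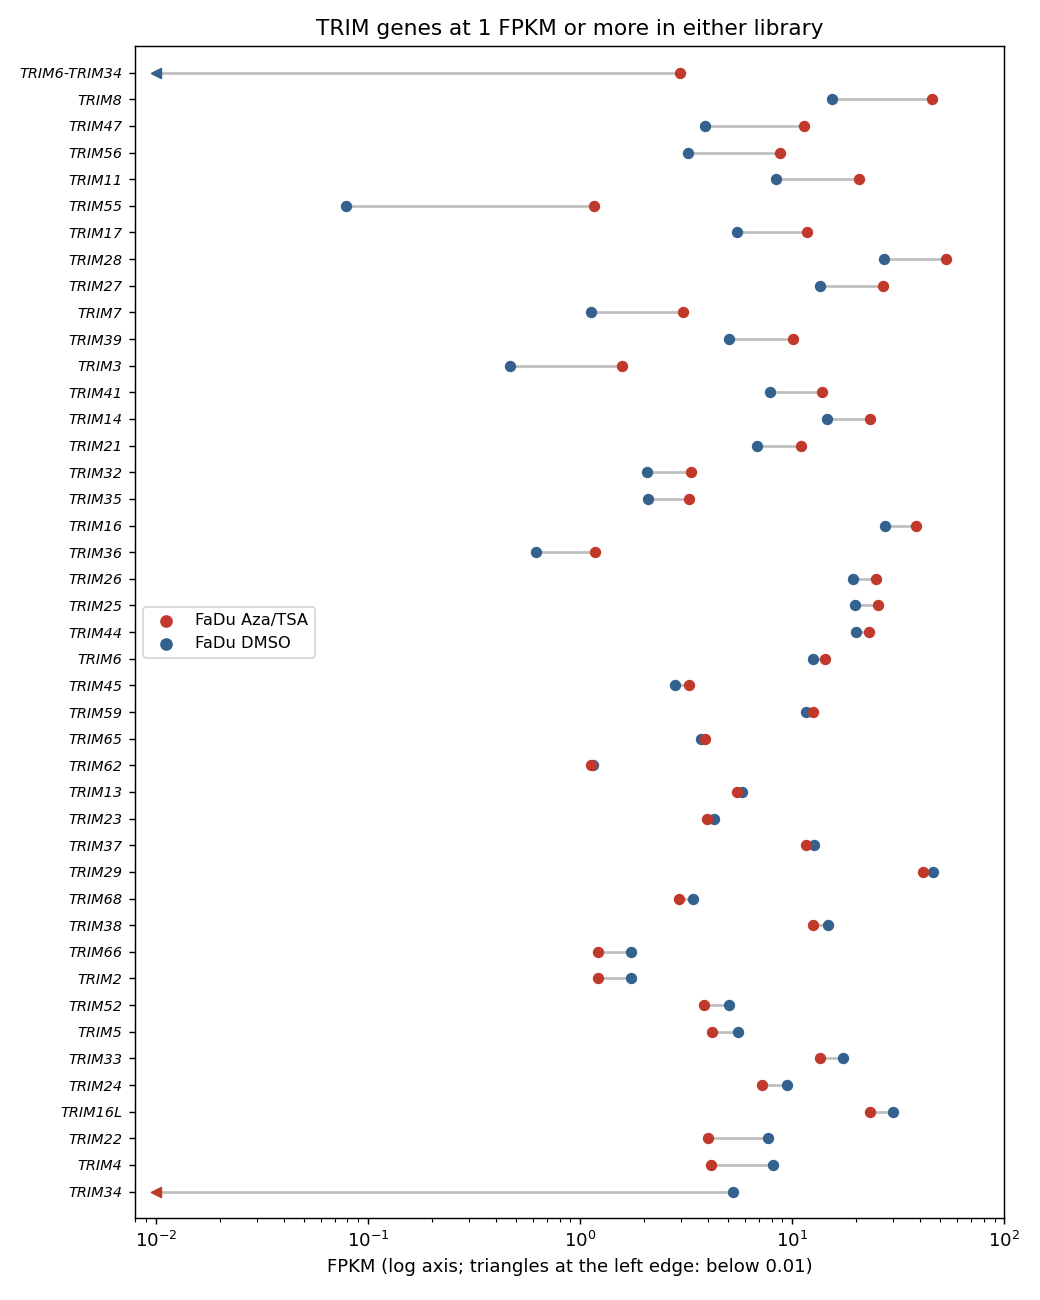
FPKM (log axis) of the 43 measured TRIM genes in the Aza/TSA library (red) and the DMSO library (blue) of FaDu, 1 library each, ordered by log2 change with the highest at the top. Triangles at the left edge stand for values below 0.01 FPKM. TRIM6-TRIM34 and TRIM34 stand at opposite ends, and the highest levels are those of TRIM28 in Aza/TSA (53.2 FPKM) and TRIM29 in DMSO (46.0 FPKM).

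Among the members with the highest levels, TRIM28, TRIM29, TRIM16 and TRIM16L were not called, while TRIM8, given below, was called higher. TRIM28, the corepressor that KRAB zinc-finger proteins recruit, had the highest level of the family in the Aza/TSA library, 53.2 FPKM, and 27.1 FPKM in the DMSO library, where it was the fourth. TRIM29, a member without a RING finger that basal keratinocytes express, was at 41.4 FPKM in Aza/TSA and 46.0 FPKM in DMSO, where it was the highest. TRIM16, which also lacks a RING finger, was at 38.2 FPKM in Aza/TSA and 27.4 FPKM in DMSO. Its shorter paralogue TRIM16L went the other way, at 23.2 FPKM in Aza/TSA and 30.0 FPKM in DMSO. Of 50-base words in the TRIM16L transcript, 56.2% also occur in TRIM16, so reads of the pair are partly exchangeable. Their sum was 61.4 FPKM in Aza/TSA and 57.4 FPKM in DMSO. In all, 21 members were at 10 FPKM or more in Aza/TSA and 15 in DMSO, and the Spearman correlation of the columns over the 75 members was 0.91, as over all genes.

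TRIM8, a RING ligase that acts in TNF and cytokine signalling, had the widest change of the members that share few sequences with other genes. It was at 45.5 FPKM in Aza/TSA and 15.4 FPKM in DMSO, a ratio of 2.96 and a log2 change of 1.51, and it was the second highest member in Aza/TSA against the ninth in DMSO. TRIM47, a PRY-SPRY ligase, was at 11.4 FPKM in Aza/TSA and 3.88 FPKM in DMSO (ratio 2.95, log2 change 1.35). TRIM56, which augments antiviral signalling through STING and TLR3, was at 8.74 FPKM in Aza/TSA and 3.22 FPKM in DMSO (ratio 2.71, log2 change 1.21). TRIM11, another PRY-SPRY ligase, was at 20.7 FPKM in Aza/TSA and 8.36 FPKM in DMSO (ratio 2.47, log2 change 1.21). After the correction for transcript GC content described below, TRIM8 was at 0.73, TRIM47 at 0.37, TRIM56 at 0.82 and TRIM11 at 0.71. None of the 4 was called on that scale, and the source of the GC trend was not tested. These 4 were at 3 FPKM or more in both libraries. TRIM55, a muscle ligase of the sarcomere also called MuRF2, was lower in level, at 1.16 FPKM in Aza/TSA and 0.0786 FPKM in DMSO. Its log2 change of 1.00 sits at the limit of the call.

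A further group was higher but stood under that limit. There were 9 measured members at least 1.5-fold higher that were not called (20.9%, against 14.6% of all measured genes). TRIM17, a ligase known from apoptosis of mouse neurons, was at 11.7 FPKM in Aza/TSA and 5.52 FPKM in DMSO (log2 change 0.97). TRIM28 had a log2 change of 0.95. TRIM27, a nuclear ligase found as a fusion partner of RET, was at 26.8 FPKM in Aza/TSA and 13.6 FPKM in DMSO (0.93), and TRIM7, which binds glycogenin, at 3.05 FPKM in Aza/TSA and 1.13 FPKM in DMSO (0.92). TRIM39 (10.1 FPKM in Aza/TSA, 5.05 FPKM in DMSO), TRIM3, TRIM41, TRIM14 and TRIM21 followed, with log2 changes of 0.87, 0.82, 0.74, 0.64 and 0.63. After the GC correction described below, the log2 changes of these 9 ran from −0.02 (TRIM41) to 0.69 (TRIM39). Only TRIM39 stayed at least 1.5-fold higher. On the lower side 2 members lay between 1.5-fold and 2-fold (4.65%, against 10.9% of all measured genes), TRIM4 at 4.14 FPKM in Aza/TSA and 8.15 FPKM in DMSO and TRIM22 at 4.02 FPKM in Aza/TSA and 7.67 FPKM in DMSO. After GC correction TRIM4 was at −0.79 and TRIM22 at −0.52. Of the 43 measured members 26 had a log2 change above 0 (60.5%, against 56.0% of all measured genes) and 17 below it.

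TRIM34 and TRIM6-TRIM34, whose gene models overlap, had opposite values. TRIM34, an interferon-induced relative of TRIM5, was listed at 0.00567 FPKM in Aza/TSA and 5.29 FPKM in DMSO (log2 change −2.64). The readthrough gene TRIM6-TRIM34, which joins the neighbouring genes into 1 transcript, was listed at 2.95 FPKM in Aza/TSA and 7.22e-68 FPKM in DMSO (1.98). Of 50-base words in the TRIM34 transcript 89.4% occur in TRIM6-TRIM34, and of the words in TRIM6-TRIM34 98.6% occur in another gene, so most reads of either could be assigned to both. The sum of the pair was 2.95 FPKM in Aza/TSA and 5.29 FPKM in DMSO, a log2 change of −0.67, which is under the limit of a call. With TRIM6, at 14.3 FPKM in Aza/TSA and 12.5 FPKM in DMSO, the sum over the 3 gene models was 17.3 FPKM in Aza/TSA and 17.8 FPKM in DMSO. Which transcript the reads came from was not measured, and FPKM of models of unequal length add up only roughly. The models of TRIM39 and TRIM39-RPP21 overlap as well, with TRIM39 expressed in both libraries and the readthrough gene at 9.77e-28 FPKM in Aza/TSA and 0.535 FPKM in DMSO. The sum of TRIM39 and TRIM39-RPP21 was 10.1 FPKM in Aza/TSA and 5.59 FPKM in DMSO (log2 change 0.75, against 0.87 for TRIM39 alone). Counted by these sums, 5 members were called higher and none lower.

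**Figure D2:**
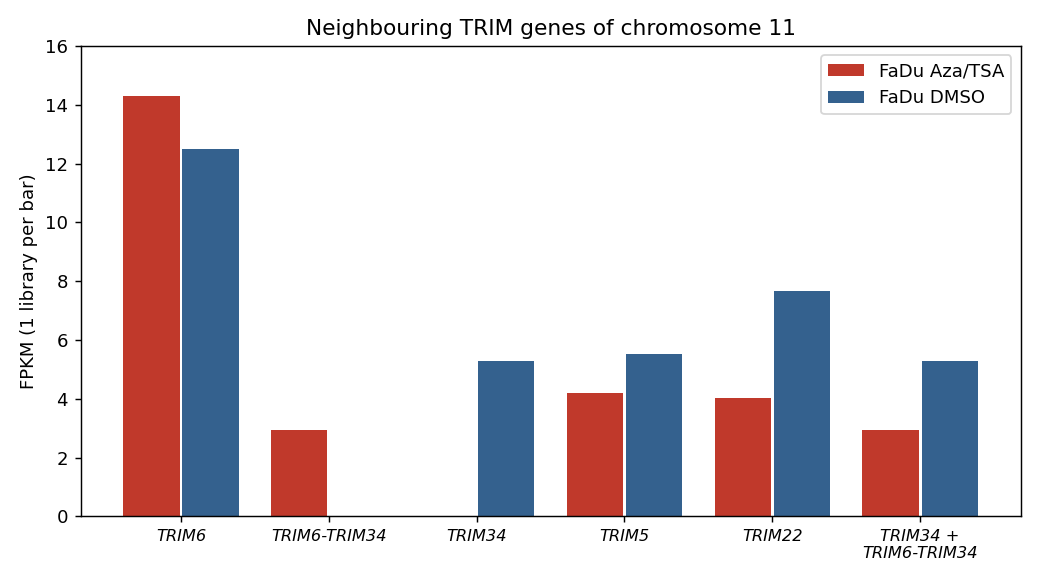
FPKM in the Aza/TSA library (red bars) and the DMSO library (blue bars) of FaDu for neighbouring TRIM genes of chromosome 11, 1 library per bar with no error bar, and for the sum of TRIM34 and TRIM6-TRIM34. TRIM34 has no visible bar in Aza/TSA and TRIM6-TRIM34 none in DMSO, while their sum is 2.95 FPKM in Aza/TSA and 5.29 FPKM in DMSO.

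The promoters of 6 members are shown because they had the widest changes in either direction among measured members found in the RefSeq promoter table (build GRCh38.p14, 250 bases before the start and 50 after it). CpG dinucleotides, the sites that DNA methyltransferases modify, are in capitals, and each sequence runs 5′ to 3′ on the strand of its gene. The first set were called higher. TRIM6-TRIM34 lies at chr11:5596387-5596686 on the plus strand, a stretch the table also gives for TRIM6, TRIM47 at chr17:75878532-75878831 on the minus strand and TRIM56 at chr7:101085231-101085530 on the plus strand.
TRIM6-TRIM34: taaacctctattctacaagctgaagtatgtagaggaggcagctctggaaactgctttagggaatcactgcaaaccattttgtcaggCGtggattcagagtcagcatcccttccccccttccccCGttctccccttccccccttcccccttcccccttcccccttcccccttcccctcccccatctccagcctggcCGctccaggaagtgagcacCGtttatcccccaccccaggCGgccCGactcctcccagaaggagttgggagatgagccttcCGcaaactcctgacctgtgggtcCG
TRIM47: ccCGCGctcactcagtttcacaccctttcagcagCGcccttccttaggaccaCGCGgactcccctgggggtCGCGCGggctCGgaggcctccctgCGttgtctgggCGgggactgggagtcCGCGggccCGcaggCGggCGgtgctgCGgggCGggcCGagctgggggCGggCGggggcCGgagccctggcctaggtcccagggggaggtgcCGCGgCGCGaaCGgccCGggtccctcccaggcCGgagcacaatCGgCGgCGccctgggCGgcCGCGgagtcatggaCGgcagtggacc
TRIM56: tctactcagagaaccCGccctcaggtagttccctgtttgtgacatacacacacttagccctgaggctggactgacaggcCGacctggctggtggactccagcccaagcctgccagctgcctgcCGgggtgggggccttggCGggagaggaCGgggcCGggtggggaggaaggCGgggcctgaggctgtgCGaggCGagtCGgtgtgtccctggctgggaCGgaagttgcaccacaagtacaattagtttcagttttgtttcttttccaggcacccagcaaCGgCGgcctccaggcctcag
The second set had lower values in Aza/TSA, with log2 changes of −2.64 (TRIM34), −0.33 (TRIM5) and −0.33 (TRIM33, 0.10 after GC correction). TRIM34 lies at chr11:5624751-5625050 on the plus strand, TRIM5 at chr11:5685025-5685324 on the minus strand and TRIM33 at chr1:114511154-114511453 on the minus strand.
TRIM34: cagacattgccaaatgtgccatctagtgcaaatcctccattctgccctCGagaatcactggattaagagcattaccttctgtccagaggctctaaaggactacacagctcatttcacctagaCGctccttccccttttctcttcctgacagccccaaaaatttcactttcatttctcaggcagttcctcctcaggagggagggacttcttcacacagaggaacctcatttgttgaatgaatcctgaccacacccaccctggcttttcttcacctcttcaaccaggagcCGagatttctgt
TRIM5: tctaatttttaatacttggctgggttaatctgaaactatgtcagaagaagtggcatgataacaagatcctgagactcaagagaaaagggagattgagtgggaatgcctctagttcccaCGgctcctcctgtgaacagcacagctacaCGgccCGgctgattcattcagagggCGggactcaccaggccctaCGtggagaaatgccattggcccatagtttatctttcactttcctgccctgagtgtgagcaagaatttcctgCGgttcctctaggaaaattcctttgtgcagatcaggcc
TRIM33: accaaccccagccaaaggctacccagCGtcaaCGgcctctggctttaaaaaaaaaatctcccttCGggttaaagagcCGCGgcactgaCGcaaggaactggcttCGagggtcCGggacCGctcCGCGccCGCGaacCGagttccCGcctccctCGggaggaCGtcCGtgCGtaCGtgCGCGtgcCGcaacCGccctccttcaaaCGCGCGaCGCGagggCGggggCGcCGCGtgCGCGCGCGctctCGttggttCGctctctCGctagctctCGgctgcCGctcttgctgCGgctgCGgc
The number of CpG did not order them: TRIM47 had 36, TRIM56 had 13 and TRIM6-TRIM34 had 8, against 44 in TRIM33, 6 in TRIM5 and 3 in TRIM34. Over the 30 measured members with a promoter in the table, the Spearman correlation of CpG number and log2 change was 0.03, given as a description over genes that share both libraries. The median was 17.5 CpG for these 30 and 3.50 for the 24 members that were not measured, against 14.0 over all 27305 promoters of the table.

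The core of the interferon-stimulated response element, through which interferon induces its target genes, was common among TRIM promoters. It was searched as TTTCNNTTTC on both strands, and 10 of 54 TRIM promoters held it (18.5%), against 3.65% of all promoters of the same length. The sequence TTTCACTTTC occurs in the printed promoters of TRIM34, from base 161, and TRIM5, from base 224. TRIM14 holds TTTCGGTTTC, and the promoters of TRIM21 and TRIM26 each hold 2 overlapping matches. The core was also found in TRIM2, TRIM16, TRIM44, TRIM64C and TRIM69. It was absent from the promoters of TRIM25, TRIM38 and TRIM56, which are on the interferon-inducible list below. The median log2 change of the 8 measured members with the core was 0.27, and that of the other 22 was 0.26. The match is one of letters, and binding was not measured.

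The interferon-inducible TRIM genes, a list written from general knowledge, did not move in 1 direction, and neither did the genes of interferon signalling. Of 9 measured members of that TRIM list of 10, 1 was called higher, TRIM56, and 1 lower, TRIM34. These were 11.1% each, against 16.1% and 5.21% of all measured genes. TRIM34 was not called when summed with the overlapping TRIM6-TRIM34 (log2 change −0.67). The median log2 change was 0.35, or 0.12 after GC correction, and on that corrected scale TRIM56 was not called. TRIM21, the cytosolic receptor of antibodies, was at 11.0 FPKM in Aza/TSA and 6.80 FPKM in DMSO, and TRIM14, an adaptor of the mitochondrial protein MAVS, at 23.3 FPKM in Aza/TSA and 14.6 FPKM in DMSO. TRIM25, which ubiquitinates the RNA sensor RIG-I, was at 25.4 FPKM in Aza/TSA and 19.8 FPKM in DMSO, and TRIM26 at 24.9 FPKM in Aza/TSA and 19.3 FPKM in DMSO, a log2 change of 0.35 that turned to −0.19 after GC correction. TRIM5, which binds retroviral capsids, was lower in Aza/TSA at 4.19 FPKM, against 5.53 FPKM in DMSO, as were TRIM22 and TRIM38 (12.6 FPKM in Aza/TSA, 14.8 FPKM in DMSO), whose log2 change of −0.22 turned to 0.13 after GC correction. The last member, TRIM69, was at 0.146 FPKM in Aza/TSA and 0.0977 FPKM in DMSO. Of 22 listed genes of innate sensing and interferon signalling, 6 were called higher (27.3%, against 16.1% of all measured genes). Called lower was 1 (4.55%, against 5.21%). The log2 change was above 0 for 15 of the 22 and below 0 for 7, with a median of 0.44. After GC correction 4 were higher, where 7.44% of all genes were, none was lower, and the median was 0.03. The transcription factor IRF7 was at 27.7 FPKM in Aza/TSA and 3.59 FPKM in DMSO, IRF9 at 67.8 FPKM in Aza/TSA and 19.5 FPKM in DMSO, and the ubiquitin-like ISG15 at 394 FPKM in Aza/TSA and 65.9 FPKM in DMSO. TLR3, a receptor of double-stranded RNA, was lower, at 2.27 FPKM in Aza/TSA and 6.99 FPKM in DMSO. RIG-I itself (DDX58), the substrate of TRIM25 and TRIM4, was at 14.8 FPKM in Aza/TSA and 10.5 FPKM in DMSO.

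The chromatin members TRIM24, TRIM28, TRIM33 and TRIM66 split, and none was called. With 4 genes this cannot be set apart from all measured genes, of which 16.1% were higher and 5.21% lower. TRIM28 was higher as given above, and the others had log2 changes between −0.35 and −0.30. On the GC-corrected scale described below this split was absent, with TRIM28 at 0.07, TRIM24 at −0.09, TRIM33 at 0.10 and TRIM66 at −0.49. TRIM24, a cofactor of nuclear receptors that ubiquitinates p53, was at 7.20 FPKM in Aza/TSA and 9.42 FPKM in DMSO, TRIM33, which acts on SMAD proteins, at 13.6 FPKM in Aza/TSA and 17.4 FPKM in DMSO, and TRIM66 at 1.22 FPKM in Aza/TSA and 1.74 FPKM in DMSO. Of 15 genes that work with TRIM28 in silencing 1 was called higher and 1 lower. These were 6.67% each, against 16.1% and 5.21% of all measured genes. The median log2 change was −0.12, and 0.16 after GC correction. After that correction none was called, where 7.44% of all genes were higher and 4.25% lower. CHD4, a remodelling enzyme, was at 88.1 FPKM in Aza/TSA and 42.2 FPKM in DMSO, the heterochromatin protein gene CBX5 at 9.21 FPKM in Aza/TSA and 20.1 FPKM in DMSO, and SUMO2 at 174 FPKM in Aza/TSA and 294 FPKM in DMSO. The histone methyltransferase SETDB1, named although outside the rule for named genes, was at 13.3 FPKM in Aza/TSA and 12.6 FPKM in DMSO.

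No measured gene was called in the groups listed here by NHL repeats, MATH, ARF or filamin domain, membrane anchor, COS box or missing RING finger. These groups hold 1 to 6 measured genes each. That is too few to be set apart from all measured genes, of which 16.1% were called higher and 5.21% lower. TRIM55, listed in a muscle group, was called as given above. In the NHL group TRIM3, expressed in brain, was at 1.58 FPKM in Aza/TSA and 0.469 FPKM in DMSO, TRIM32, mutated in a limb-girdle muscular dystrophy, at 3.32 FPKM in Aza/TSA and 2.07 FPKM in DMSO, and TRIM2, a ligase of neurofilament light chain, at 1.21 FPKM in Aza/TSA and 1.73 FPKM in DMSO. TRIM71, the stem-cell member of that group, was listed at 0.0406 FPKM in both. TRIM37, a MATH-domain ligase of the centrosome, was at 11.6 FPKM in Aza/TSA and 12.7 FPKM in DMSO, TRIM23, which carries an ARF GTPase domain, at 3.95 FPKM in Aza/TSA and 4.28 FPKM in DMSO, and TRIM45, with a filamin domain, at 3.28 FPKM in Aza/TSA and 2.80 FPKM in DMSO. The membrane-anchored members also stood close in both libraries, with TRIM13 of the endoplasmic reticulum at 5.50 FPKM in Aza/TSA and 5.79 FPKM in DMSO and TRIM59 at 12.5 FPKM in Aza/TSA and 11.6 FPKM in DMSO. Of the 4 genes listed here as a COS-box group (TRIM9, TRIM36, TRIM46 and TRIM67), only TRIM36 was measured. It was at 1.17 FPKM in Aza/TSA and 0.619 FPKM in DMSO. The muscle genes, TRIM55 among them, were listed apart from that group. Of the 6 members without a RING finger none was called (median log2 change 0.02, or −0.19 after GC correction), and TRIM44 was among them at 23.0 FPKM in Aza/TSA and 20.1 FPKM in DMSO. The measured members not yet given were likewise uncalled. TRIM35 was at 3.28 FPKM in Aza/TSA and 2.10 FPKM in DMSO, and TRIM52 at 3.84 FPKM in Aza/TSA and 5.06 FPKM in DMSO. TRIM62 was at 1.13 FPKM in Aza/TSA and 1.15 FPKM in DMSO, and TRIM68, a coactivator of the androgen receptor, at 2.92 FPKM in Aza/TSA and 3.42 FPKM in DMSO.

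**Figure D3:**
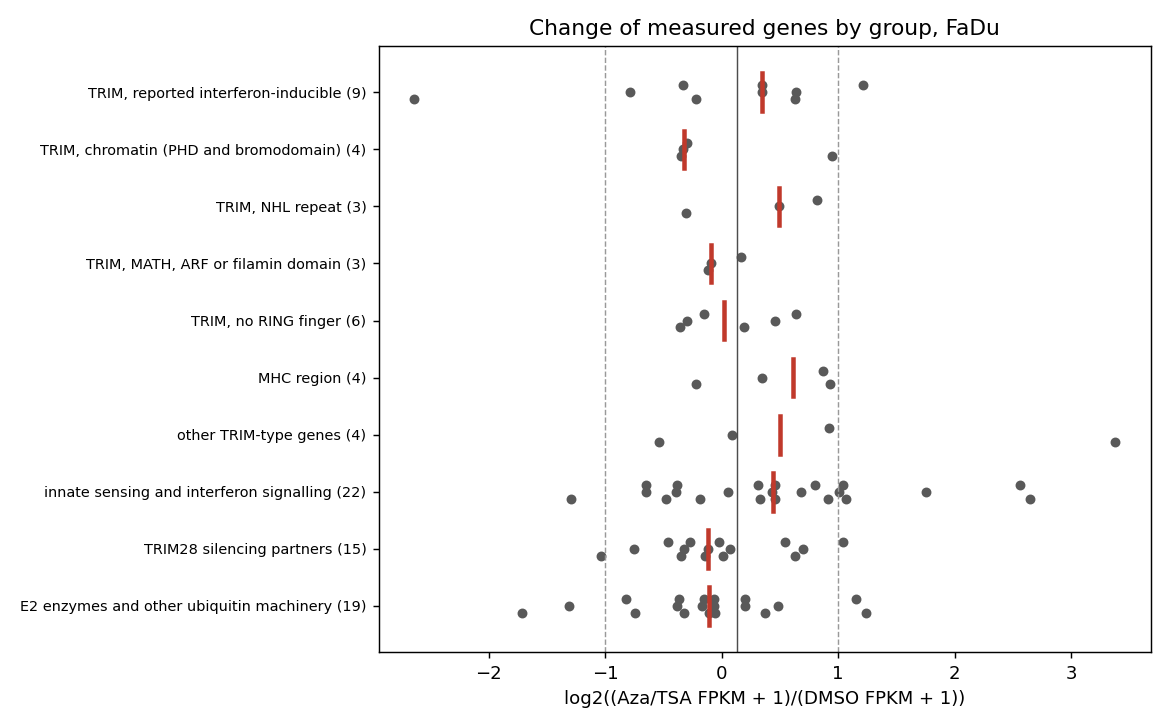
Log2 change of each measured gene (points) by group, with the median of the group as a red bar, the median of all measured genes (0.13) as a solid line and the 2-fold limits as dashed lines. The number of measured genes is in parentheses, and a TRIM gene can be in more than 1 group. Interferon signalling genes lie between −1.29 (TLR3) and 2.65 (IRF7). The interferon-inducible TRIM genes lie between −2.64 (TRIM34, −0.67 when summed with TRIM6-TRIM34) and 1.21 (TRIM56).

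Neighbouring TRIM genes were alike in some places and not in others. By gene order in RefSeq (GRCh38.p14), TRIM11 and TRIM17 are adjacent on chromosome 1, with log2 changes of 1.21 and 0.97 (0.71 and 0.34 after GC correction), and TRIM7 and TRIM41 are adjacent on chromosome 5, with 0.92 and 0.74 (0.21 and −0.02 after GC correction). TRIM47 and TRIM65, adjacent on chromosome 17, had 1.35 and 0.05 (0.37 and −0.58 after GC correction). TRIM65, a ligase of the RNA sensor MDA5, was at 3.87 FPKM in Aza/TSA and 3.70 FPKM in DMSO. Of the 9 members in or near the MHC region of chromosome 6, 4 were measured and none was called. Of all measured genes 16.1% were called higher and 5.21% lower, so 4 genes are too few to differ from that.

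The remaining 32 members were under 1 FPKM in both libraries, and 21 of them had a higher value in Aza/TSA, 3 a lower one (TRIM9, TRIM67 and TRIM39-RPP21), 1 the same value to 3 digits (TRIM71) and 7 were listed at 0 in both (TRIM40, TRIM42, TRIM48, TRIM64, TRIM64B, TRIM64C and TRIM77P). These are listed levels close to the lowest the table holds, and no fold is given for them. Of the 75 members 20 were listed at 0 in DMSO, 13 of which had a value above 0 in Aza/TSA, and none was listed at 0 in Aza/TSA alone. The same counts were not taken over all symbols, so those given here show nothing particular to the TRIM family. The highest of the 32 was TRIM60, at 0.909 FPKM in Aza/TSA and listed at 0 in DMSO, and its neighbour TRIM61 was at 0.390 FPKM in Aza/TSA and listed at 0 in DMSO. TRIM43 was at 0.663 FPKM in Aza/TSA and 0.0419 FPKM in DMSO, and its copy TRIM43B at 0.481 FPKM in Aza/TSA and 0.0814 FPKM in DMSO, with 76.9% of the 50-base words of TRIM43 found in TRIM43B. Of the 14 genes in the table from a list of testis and early-embryo copies none reached 1 FPKM. TRIM31, a ligase of gut epithelium, was at 0.751 FPKM in Aza/TSA and 0.196 FPKM in DMSO. The muscle genes TRIM54, TRIM63 and TRIM72 were at 0.103, 0.0382 and 0.0917 FPKM in Aza/TSA and listed at 0 in DMSO. The near-identical TRIM73 and TRIM74 were both at 0.0520 FPKM in DMSO and at 0.295 and 0.269 FPKM in Aza/TSA, and their promoters differ at 1 of 300 positions. Called switched on, meaning under 0.1 FPKM in DMSO and at 1 FPKM or more in Aza/TSA, were 2 members (2.67%), TRIM55 and TRIM6-TRIM34, where 2.05% of all symbols were.

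TRIM-type genes with other names included the widest change of all TRIM-type genes compared here. TRIML2, a PRY-SPRY relative outside the name rule, was at 18.4 FPKM in Aza/TSA and 0.870 FPKM in DMSO (log2 change 3.38). It was the only one called of 4 measured in that list of 6. PML, the scaffold of nuclear bodies also known as TRIM19, was at 17.6 FPKM in Aza/TSA and 8.81 FPKM in DMSO (0.92). MID1, a microtubule-bound ligase, was at 2.52 FPKM in Aza/TSA and 4.12 FPKM in DMSO, and its paralogue MID2 at 1.10 FPKM in Aza/TSA and 0.979 FPKM in DMSO. TRIML1 and the pyrin gene MEFV stayed under 1 FPKM, at 0.207 and 0.105 FPKM in Aza/TSA and both listed at 0 in DMSO.

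The machinery that TRIM ligases draw on went in both directions. Of 19 genes for ubiquitin, its E1 enzyme and E2 enzymes, 2 were called higher and 2 lower. These were 10.5% each, against 16.1% and 5.21% of all measured genes. The median log2 change was −0.11 (−0.04 after GC correction). After GC correction 1, UBE2D1, was lower and none higher, where 4.25% and 7.44% of all genes were. The E1 enzyme UBA1 was at 78.6 FPKM in Aza/TSA and 32.7 FPKM in DMSO, and the polyubiquitin gene UBB at 1186 FPKM in Aza/TSA and 536 FPKM in DMSO. UBE2D1, an E2 that works with many RING ligases, was at 3.94 FPKM in Aza/TSA and 15.2 FPKM in DMSO. UBE2V2, a partner of the E2 that builds K63-linked chains, was at 38.3 FPKM in Aza/TSA and 96.7 FPKM in DMSO.

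TRIM genes with GC-rich transcripts had the higher changes, as other genes did. Over the 43 measured members the Spearman correlation was 0.57, and over 11566 measured genes with a transcript in GENCODE release 29 it was 0.62, both given as descriptions. The 24 measured members at or above 48.8% GC, the median of measured genes, had a median log2 change of 0.63, and 19 of them were above 0. The 19 below it had a median of −0.12, and 7 of them were above 0. The medians of all measured genes on either side were 0.62 and −0.26. Where this trend came from was not tested. With 1 library per group, an effect of the treatment and a difference between the libraries cannot be told apart in it. The corrected changes are thus a second scale and do not decide whether a call is right. The transcripts of TRIM47, TRIM8, TRIM11 and TRIM56 have 66.4, 61.1, 55.3 and 53.5% GC. With the trend over all genes subtracted, none of these 4 was called, and 2 members were called higher, TRIM55 (1.08) and TRIM6-TRIM34 (2.02), where 7.44% of all genes were, and TRIM34 was called lower (−2.53), where 4.25% of all were. On this scale TRIM28 was at 0.07 and TRIM29 at −0.82, while TRIM36, TRIM56 and TRIM59 had the next highest corrected changes of 0.85, 0.82 and 0.78. TRIML2 kept 3.30.

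**Figure D4:**
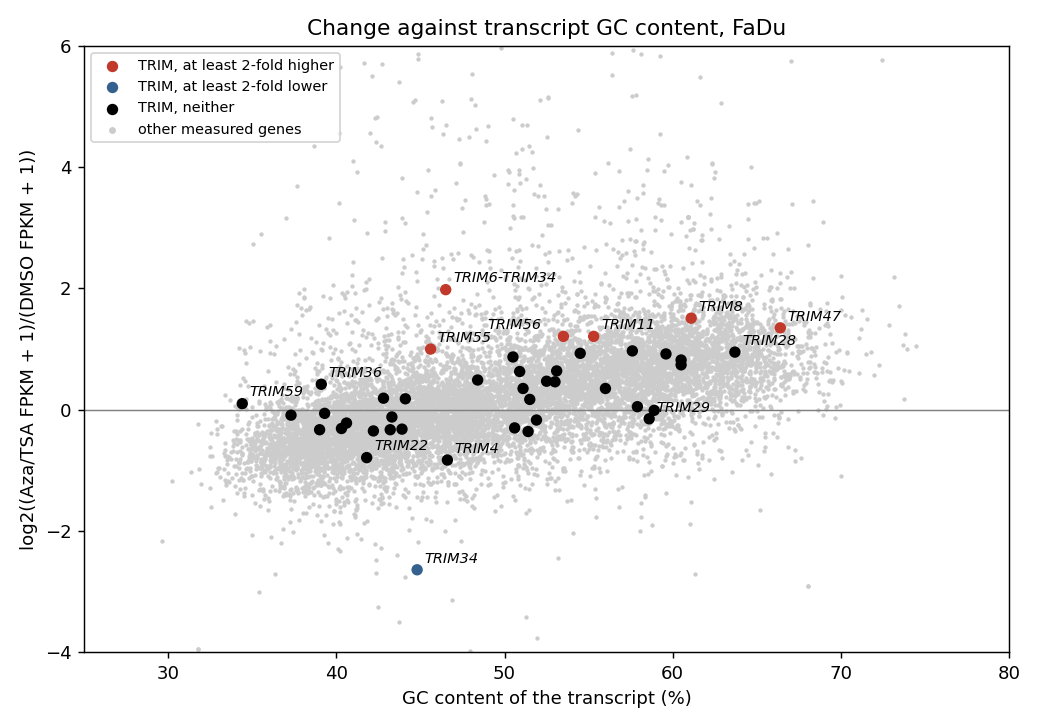
Log2 change between the Aza/TSA and DMSO libraries of FaDu against GC content of the longest transcript (percent) for the 43 measured TRIM genes (red, called higher; blue, called lower; black, neither) and for 11523 other measured genes (grey, 73 of them outside the axes). TRIM47 and TRIM8 lie at the GC-rich end with the grey cloud, and TRIM34 and TRIM6-TRIM34 lie away from it.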

How the data were processed

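Polyadenylated RNA of FaDu and UMSCC47 cells was sequenced from stranded libraries, 1 for each of 4 groups, per the labels' protocols. The authors deposited 1 table of FPKM per gene symbol and library, per the file headers, and the submitters' processing notes name TopHat 1.3.2, Cufflinks 2.0.2 and the build hg19. Annotation, filters and between-library scaling are not given in the sources used, and depth is unknown. The members and lists were chosen with earlier results of these data known. Groups came from the sample labels. Repeated symbols were summed (45 rows, no TRIM gene among them). Changes are log2((Aza/TSA FPKM + 1)/(DMSO FPKM + 1)), computed with pandas 2.3.3 on Python 3.11.15. With 1 library per group no test was made. The calling and GC steps were tested on simulated data, with changes wider than the limit given to well-expressed genes only. Calls near the 2-fold limit and changes of low genes were not covered. GC content came from the longest transcript per symbol in GENCODE release 29, coding ones first (70 of 75 members matched), and its trend was fitted by lowess (fraction 0.3, statsmodels 0.14.6) over 6642 genes with at least 5 FPKM in each library. Promoters came from RefSeq (54 members matched by symbol). Their build, GRCh38, is not that of the files, so coordinates belong to the printed sequences only. Any measured TRIM gene could be named, and from each other list the 4 measured genes with the widest change, or every gene in lists of up to 6. DDX58 and SETDB1, and GAPDH and the cell type markers used as checks, were named outside that rule.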

Additional observations from a re-analysis of the deposited data

How the results depend on the processing

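The 6 TRIM genes called higher became 9 with a pseudocount of 0.1 and 1 (TRIM8) with a pseudocount of 5. They became 10 with TPM scaling, 2 after GC correction and 0 at a 4-fold limit. With TPM scaling 48 members passed the filter in place of 43, TRIM43, TRIM60 and TRIM39-RPP21 among those added. After GC correction 7.44% of all genes were higher. For the other settings the share of all genes is not given here, so those counts show nothing particular to the TRIM family. The 1 called lower, TRIM34, stayed called in every setting in which TRIM34 and TRIM6-TRIM34 were kept apart, and 2 were lower with TPM scaling, TRIM34 and TRIM39-RPP21. With the readthrough genes added to TRIM34 and TRIM39, an alternative chosen after seeing the data, 0 were lower and 1 was switched on in place of 2. The median log2 change of 0.19 was 0.29 with TPM scaling, 0.12 after GC correction and 0.06 relative to the median of all measured genes, which is 0.13 and was 0.10 with TPM scaling. Taking no filter, only genes at 5 FPKM or more, or the highest row per symbol left each count within 1.5 times its value. The sign of the change differed in at least 1 scaling for 11 of the 43 measured members, TRIM2, TRIM13, TRIM23, TRIM26, TRIM33, TRIM37, TRIM38, TRIM41, TRIM45, TRIM59 and TRIM65, each of them uncalled. No paired analysis was possible because each group has 1 library, and no library could be left out. FPKM give no depth, so values below 1 FPKM may rest on few reads, which was not tested.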
